A study of Mus musculus with 12 samples.

Results

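The genes described here are 10 genes best known from T cells and natural killer (NK) cells, read in cells of a mouse B cell lymphoma: Tcf7, Lef1, Gata3 and Bcl11b (transcription factors), Cd28, Cd2 and Cd3e (surface receptors), Lat (a signalling adaptor), and Prf1 and Gzmb (cytotoxic granule proteins). They were picked by name, 10 of the 23479 genes in the table, with results from these libraries already known. Their own changes, and the calls made on them, are therefore a description, and no exact p-value is printed for them. Of the 10, 9 entered the fit, having a normalized read count of 10 or more in 3 or more libraries, and Gzmb did not.

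T cells recognise antigen with a receptor that signals through the CD3 chains, of which Cd3e encodes one. Kinases then phosphorylate LAT, a membrane scaffold on which further signalling proteins gather, while CD28 gives a second, costimulatory signal and CD2 supports adhesion. TCF-1 (Tcf7) and LEF-1 (Lef1) bind the same DNA motif and can act with beta-catenin at the end of the Wnt pathway. In the thymus TCF-1, GATA-3 and BCL11B act early in commitment to the T lineage. Perforin (Prf1) and granzyme B (Gzmb) kill target cells. Some of these genes are not restricted to T and NK cells: Lef1 is known in mouse precursor B cells, and CD2 is found on mouse B cells.

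The cells came from 1 lymphoma of a C57BL/6 mouse, labelled lymph node, and all carried the transgenes Eµ-Myc and Eµ-rtTA and were cultured with interleukin-7 after puromycin selection. TFEB cells held a retrovirus with TFEB, a factor that switches on genes for lysosomes and autophagy, with a serine changed to alanine and fused to ERT2, an altered hormone-binding part of the human estrogen receptor to which 4-hydroxytamoxifen (4-OHT) binds. Vector cells held the same kind of virus with the puromycin marker alone. The 4 groups, with 3 libraries each, were TFEB cells given 4-OHT, TFEB cells given vehicle, vector cells given 4-OHT and vector cells given vehicle, each kept for 4 days. The dose of 4-OHT is given as 250 nM in the labels and with the same figure in ng/mL in the design text, so it is uncertain. Each line is a transduced population of a single tumour, and nothing says whether the 3 libraries came from separate cultures, so the spread between them may be technical.

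Libraries held 11849029 to 22109283 reads, and the number of genes with any read ran from 11390 to 19250. TFEB 4-OHT library 2, TFEB vehicle library 1 and vector 4-OHT library 2 had the most genes. Reads of Tfeb itself, which check the labels, averaged 665 ± 72.6 in TFEB cells given 4-OHT, 1676 ± 249 in TFEB cells given vehicle, 221 ± 23.4 in vector cells given 4-OHT and 243 ± 17.7 in vector cells given vehicle. Here and below, values are the authors' normalized read counts, and values after ± are SDs over 3 libraries unless marked SE. The B lineage gene Cd79a, a signalling chain of the B cell receptor, was high in all 4 groups, at 8859 ± 378 in TFEB cells given 4-OHT, 7546 ± 769 in TFEB cells given vehicle, 8477 ± 853 in vector cells given 4-OHT and 7921 ± 194 in vector cells given vehicle. Most B lineage genes tested went the other way with 4-OHT in TFEB cells. Of 31 tested, 18 fell and 5, Cd79a among them, rose, against 13.9% of all tested genes lower and 13.7% higher. Expression is from bulk RNA, so a gene that is on in a few cells and a gene that is low in all cells cannot be told apart.

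Tcf7 was high in TFEB cells given 4-OHT and low in the other 3 groups. The gene lies at chr11:52252371-52283014 on the minus strand (GRCm38, the patch series of mm10). Its levels were 1430, 1367 and 1131 in TFEB cells given 4-OHT, against 17.1, 25.6 and 9.68 in TFEB cells given vehicle. In vector cells it had 7.51, 10.7 and 6.76 in 4-OHT, against 12.5, 11.0 and 23.5 in vehicle. Every TFEB 4-OHT library thus stood far above the other 9 libraries, which all lay below 26. The means were 1309 ± 158, 17.5 ± 7.97, 8.32 ± 2.08 and 15.7 ± 6.82 for TFEB cells given 4-OHT, TFEB cells given vehicle, vector cells given 4-OHT and vector cells given vehicle. On the log2(value + 1) scale used for all fold changes here, 4-OHT raised Tcf7 in TFEB cells by 6.24 ± 0.53 (SE), a 75.5-fold difference. In vector cells the same difference was -0.79 ± 0.53 (SE). In 4-OHT the TFEB cells exceeded the vector cells by 7.15 ± 0.53 (SE), and in vehicle by 0.12 ± 0.53 (SE).

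Lef1, its close relative (chr3:131110471-131224356, plus strand), had the opposite direction and a much higher starting level. It had 5874, 5114 and 5282 in TFEB cells given 4-OHT, against 8694, 8615 and 8652 in TFEB cells given vehicle. In vector cells it had 6293, 6943 and 5098 in 4-OHT, against 6971, 8205 and 9311 in vehicle. In both lines every 4-OHT library lay below every vehicle library of that line. The log2 difference between 4-OHT and vehicle was -0.68 ± 0.10 (SE) in TFEB cells and -0.42 ± 0.10 (SE) in vector cells. Subtracting the vector effect gave -0.26 ± 0.14 (SE), which limma did not call; without vector 4-OHT library 3 it was called, at -0.38. The vector change was not called by limma with all 12 libraries, and was called by DESeq2 and by limma without vector 4-OHT library 2 or vector vehicle library 1.

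Promoter sequences show where the 2 factors' own motif and the motif of TFEB-type factors lie in the members. RefSeq windows (GRCm38.p6) of 250 bases before to 50 after a gene's start were found for 8 of the 10 genes, 12 windows in all. They were searched on both strands for CACGTG, the E-box core bound by many basic helix-loop-helix factors including MYC and TFEB, for its longer form TCACGTGA, which contains that core and is typical of lysosomal genes, and for CTTTGA, a core of the TCF and LEF motif. CACGTG lay in windows of 2 of these 8 members, Lat and Lef1, against 8.09% of all genes and 7.15% of the 32851 windows of all genes. Lef1 had more than 1 window in which a match could lie. TCACGTGA lay in 1 window, an internal start of Lef1, against 0.974% of all windows. CTTTGA lay in that same Lef1 window and in Bcl11b, against 18.2% of all genes and 16.0% of all windows. The windows below are read 5′ to 3′ on the gene's strand, with matches in capitals; TCAAAG is CTTTGA on the other strand. A Tcf7 window is shown because that gene was low in 3 groups and high in 1. Tcf7 had more than 1 window, and none held a match to any of the 3 motifs. Sequence outside the windows was not searched.
Lat, chr7:126369519-126369818, minus strand: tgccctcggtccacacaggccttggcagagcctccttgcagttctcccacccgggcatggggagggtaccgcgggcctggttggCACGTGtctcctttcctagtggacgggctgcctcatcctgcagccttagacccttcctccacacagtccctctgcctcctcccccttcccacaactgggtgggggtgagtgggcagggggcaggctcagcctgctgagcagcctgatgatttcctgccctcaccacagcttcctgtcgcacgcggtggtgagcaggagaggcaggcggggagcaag
Lef1, internal start, chr3:131156044-131156343, plus strand: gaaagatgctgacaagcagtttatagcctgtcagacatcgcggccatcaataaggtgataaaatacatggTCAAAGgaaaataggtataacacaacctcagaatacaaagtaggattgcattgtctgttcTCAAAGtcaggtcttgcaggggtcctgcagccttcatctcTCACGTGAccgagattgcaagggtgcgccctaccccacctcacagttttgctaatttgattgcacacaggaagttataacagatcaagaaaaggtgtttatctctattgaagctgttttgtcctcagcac
Tcf7, chr11:52282965-52283264, minus strand: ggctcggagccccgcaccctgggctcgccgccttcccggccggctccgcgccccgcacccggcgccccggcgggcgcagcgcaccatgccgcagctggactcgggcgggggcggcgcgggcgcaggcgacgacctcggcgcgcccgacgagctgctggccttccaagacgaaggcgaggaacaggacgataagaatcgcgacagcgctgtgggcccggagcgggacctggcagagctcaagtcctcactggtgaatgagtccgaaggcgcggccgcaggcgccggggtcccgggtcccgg
In Lat the E-box begins at position -166 from the start site, and in Lef1 at -79. These matches are descriptions of the letters only, and no binding was measured.

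**Figure D1:**
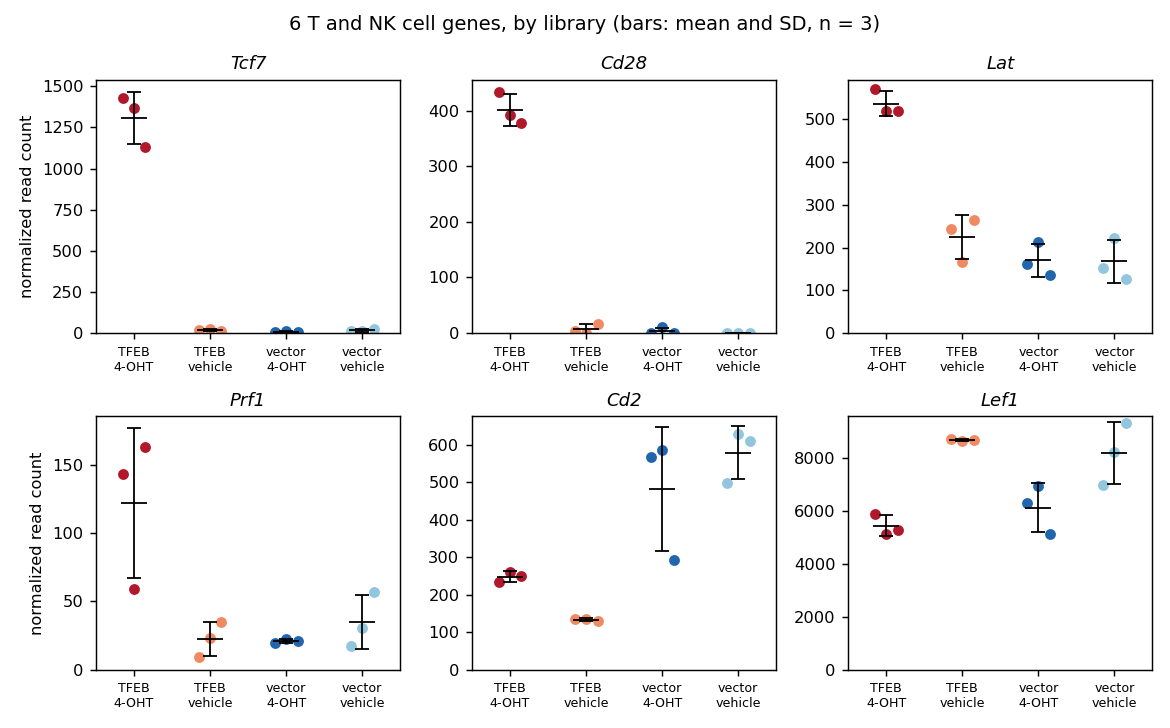
Normalized read count (linear axis from 0) of the 6 genes with most reads in each of the 12 libraries, by group, with horizontal bars for the mean and SD of 3 libraries. Tcf7 and Cd28 stand high only in the TFEB 4-OHT libraries among those plotted, whereas Cd2 is lower in both TFEB groups than in either vector group.

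Cd28, the costimulatory receptor (chr1:60716800-60773359, plus strand), was close to the detection floor outside TFEB cells given 4-OHT. It had 434, 392 and 378 in TFEB cells given 4-OHT, against 4.28, 0 and 16.6 in TFEB cells given vehicle. In vector cells it had 0, 10.7 and 0 in 4-OHT, and was at 0 in all 3 vehicle libraries. Cd28 passed the filter on low values only through the TFEB 4-OHT libraries, the group in which it was high. A listed 0 is compatible with as many as 3 reads, worth 2.21 to 4.15 depending on the library. The ratio of the TFEB means was 57.7, while the fit, which averages logs with a pseudocount of 1, gave 6.47 ± 1.21 (SE) on the log2 scale, or 88.7-fold. The fitted difference of the 4-OHT effects between the lines, 5.29 ± 1.71 (SE), has 5 vector libraries at 0 behind it. It was called by limma and lost in 12 alternatives. These were edgeR (1.20) and DESeq2 (1.27) on whole reads, and in limma a pseudocount of 0.5 (5.37), a minimum value of 50, no filter, no variance trend, and fits without any 1 of the TFEB 4-OHT libraries (5.23 to 5.33), without TFEB vehicle library 2 (4.2) and without vector 4-OHT library 1 or 3 (4.70).

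Lat, the scaffold of T cell receptor signalling (chr7:126363824-126369570, minus strand), was present in all groups and higher in TFEB cells given 4-OHT. It had 570, 520 and 519 in TFEB cells given 4-OHT, against 243, 167 and 265 in TFEB cells given vehicle. In vector cells it had 162, 212 and 137 in 4-OHT, against 153, 224 and 127 in vehicle. The lowest TFEB 4-OHT library was thus above the highest of the other 9, and the 2 vector groups overlapped fully. The 4-OHT effect was 1.28 ± 0.24 (SE) on the log2 scale in TFEB cells, a 2.42-fold difference, and 0.04 ± 0.24 (SE) in vector cells. Lat starts 490 bases from Spns1, a gene of a lysosomal lipid transporter on the same strand. Spns1 averaged 508 ± 87.8 in TFEB cells given 4-OHT, 298 ± 92 in TFEB cells given vehicle, 362 ± 60.4 in vector cells given 4-OHT and 337 ± 59.3 in vector cells given vehicle. Its 4-OHT effect in TFEB cells was 0.80 ± 0.21 (SE; adjusted p = 0.00381, limma), and its effect did not differ between the lines past the threshold (0.69, adjusted p = 0.123, limma); this gene was looked at after its values were seen. Whether reads cross between such neighbours was not tested.

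Cd2, an adhesion receptor (chr3:101275899-101287939, minus strand), differed between the lines in vehicle by more than it did with 4-OHT in either line. It had 234, 261 and 250 in TFEB cells given 4-OHT, against 136, 135 and 129 in TFEB cells given vehicle. In vector cells it had 566, 586 and 292 in 4-OHT, against 498, 628 and 610 in vehicle. All 6 TFEB libraries were below all 6 vector libraries, and within TFEB cells the 4-OHT libraries were above the vehicle libraries. In vehicle the TFEB cells had 4.30-fold less Cd2 than the vector cells, a log2 difference of -2.10 ± 0.21 (SE). In 4-OHT the difference between the lines was -0.89 ± 0.21 (SE), a 1.85-fold lower level, and limma no longer called it without the 3 libraries with most genes (-0.75). The 4-OHT effect was 0.89 ± 0.21 (SE) in TFEB cells and -0.33 ± 0.21 (SE) in vector cells; the vector value was near 0 without vector 4-OHT library 3.

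Prf1, the pore-forming protein of cytotoxic granules (chr10:61297833-61304680, plus strand), had 143, 59.4 and 163 in TFEB cells given 4-OHT, against 9.43, 23.5 and 34.6 in TFEB cells given vehicle. In vector cells it had 19.3, 22.5 and 21.1 in 4-OHT, against 17.7, 30.7 and 56.6 in vehicle. The TFEB 4-OHT libraries were all above the other 9, but library 2 exceeded the highest vector vehicle library only narrowly. The 4-OHT effect was 2.43 ± 0.62 (SE) in TFEB cells, 5.40-fold, and -0.56 ± 0.62 (SE) in vector cells. The difference of these effects, 3.00 ± 0.87 (SE), was called by limma and was lost without TFEB 4-OHT library 1 (2.82) or 3 (2.72), or without vector vehicle library 3 (2.58).

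The remaining 4 members had too few reads for any ordering of the groups. Cd3e, the CD3 chain that T cells cannot do without for receptor assembly (chr9:44998740-45009627, minus strand), held 62 reads over the 12 libraries. It had 15.1, 10.3 and 2.91 in TFEB cells given 4-OHT, against 2.57, 9.60 and 2.76 in TFEB cells given vehicle, and 0, 20.2 and 0 in vector cells given 4-OHT, against 4.42, 0 and 0 in vector cells given vehicle. Its highest library was thus a vector library. Bcl11b, a T lineage commitment factor (chr12:107910403-108003602, minus strand), held 117 reads, with 9.68, 45.2 and 11.6 in TFEB cells given 4-OHT, against 2.57, 0 and 22.1 in TFEB cells given vehicle, and 10.7, 30.8 and 0 in vector cells given 4-OHT, against 2.95, 1.57 and 0 in vector cells given vehicle. The groups overlapped within each line. Gata3 (chr2:9857078-9890034, minus strand) held 81 reads, with 0, 1.29 and 1.94 in TFEB cells given 4-OHT, against 3.43, 9.60 and 24.9 in TFEB cells given vehicle, and 0, 21.4 and 5.92 in vector cells given 4-OHT, against 10.3, 6.30 and 0 in vector cells given vehicle. Its TFEB groups did not overlap, and the log2 difference of -2.50 ± 1.47 (SE) was not called. Gzmb (chr14:56258838-56262260, minus strand) held 10 reads, in vector 4-OHT library 2 (4.75) and vector vehicle library 1 (4.42), and was at 0 in the other 10 libraries, TFEB libraries included. In vector cells given 4-OHT, library 2 was the highest of its group for all 10 members, and it was also among the 3 libraries with most genes; the part of this in the low values was not tested.

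**Figure D2:**
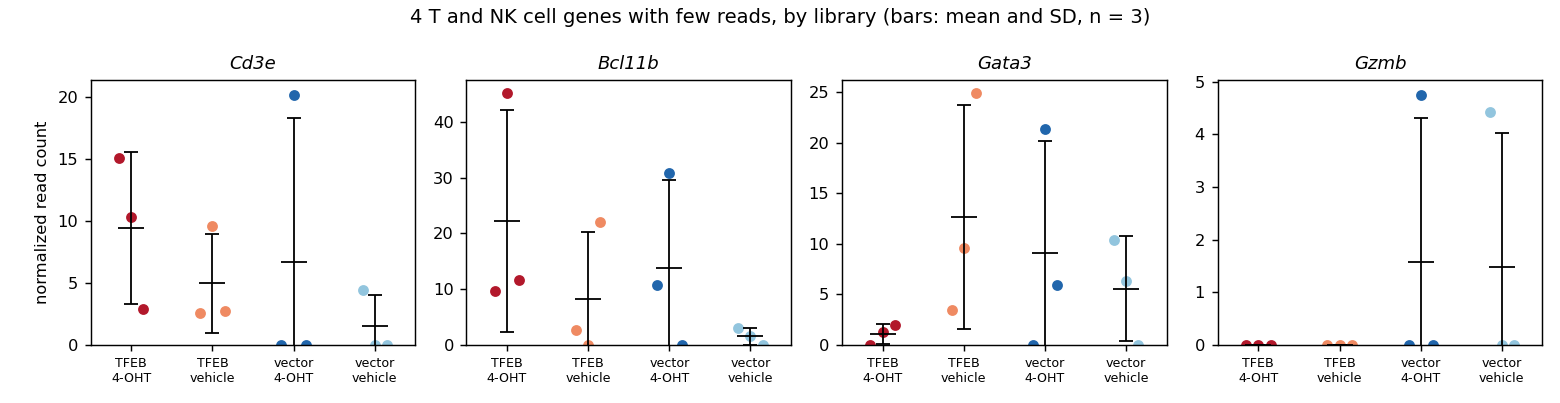
Normalized read count (linear axes from 0) of Cd3e, Bcl11b, Gata3 and Gzmb in each of the 12 libraries, by group, with bars for the mean and SD of 3 libraries, cut at 0. The largest value plotted is 45.2, for Bcl11b in TFEB 4-OHT library 2, and single libraries carry most of each group's mean.

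When TFEB cells given 4-OHT were set against TFEB cells given vehicle, limma called 6 of the 9 tested members at an adjusted p under 0.05 (Benjamini-Hochberg over 13111 genes). Of these, 5 were higher (Tcf7, Cd28, Prf1, Lat and Cd2) and 1 lower (Lef1), in a comparison that called 27.5% of all tested genes, 13.7% higher and 13.9% lower. The groups did not overlap for 7 of the 9, Gata3 being the seventh, against 38.0% of all tested genes. The same 6 genes were called under all 24 alternative settings, edgeR and DESeq2 on whole reads included. In vector cells limma called none of the 9, against 0.0153% of all tested genes called, while edgeR called 0 and DESeq2 called 1. At an unadjusted p under 0.05 limma had 1 of the 9, Lef1, against 822 of all 13111 tested genes. Groups of vector cells did not overlap for Tcf7 and Lef1, both lower in 4-OHT, where 10.8% of all genes had groups apart. The difference of the 4-OHT effects was called for 5 of the 9 (Tcf7, Cd28, Prf1, Lat and Cd2), all higher in TFEB cells, in a comparison that called 15.8% of all genes, 7.75% higher and 8.01% lower; edgeR and DESeq2 called 4 each, without Cd28. Between the lines in vehicle, 1 of the 9 was called, Cd2, lower in TFEB cells, against 5.38% of all genes, 2.89% higher and 2.49% lower. Cd2 was also the 1 member whose libraries did not overlap there, against 21.6% of all genes. Between the lines in 4-OHT, 5 were called, Tcf7, Cd28, Lat and Prf1 higher and Cd2 lower in TFEB cells, against 27.1% of all genes, 13.6% higher and 13.5% lower. The libraries of those 5 did not overlap, against 39.1% of all genes. The members were chosen with these comparisons known, so nothing is read from these calls, from their stability or from these shares.

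**Figure D3:**
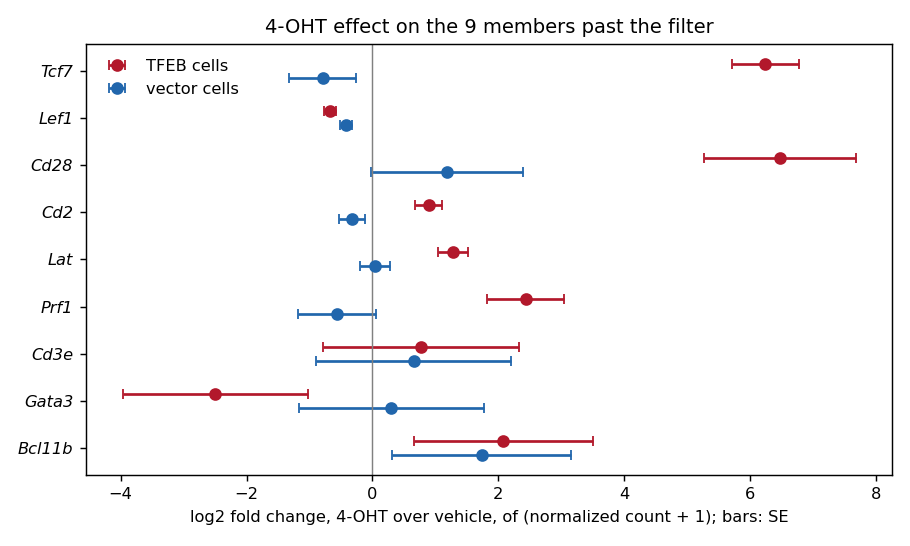
Log2 fold change of 4-OHT over vehicle in TFEB cells (red, upper point of each pair) and vector cells (blue, lower point) for the 9 members in the fit, with bars for the SE. Tcf7 and Cd28 lie above 6 in TFEB cells, while Lef1 lies below 0 in both lines.

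Per kilobase of exon, which allows levels of different genes to be compared, Lef1 led in all 4 groups. In TFEB cells given 4-OHT the order was Lef1 (617 ± 45.4 normalized counts per kilobase), Tcf7 (499 ± 60.0), Lat (194 ± 10.6), Cd2 (143 ± 7.89), Cd28 (65.6 ± 4.70) and Prf1 (47.1 ± 21.3), with Bcl11b at 2.73 ± 2.46, Cd3e at 2.31 ± 1.5, Gata3 at 0.271 ± 0.248 and Gzmb at 0. Cd28 and Prf1 were within their spread of each other, as were Bcl11b and Cd3e. In TFEB cells given vehicle the order was Lef1 (985 ± 4.48), Lat (81.3 ± 18.8), Cd2 (76.4 ± 2.31), Prf1 (8.70 ± 4.87) and Tcf7 (6.66 ± 3.04), with the other 5 at 3.18 or less; Lat and Cd2, and Prf1 and Tcf7, were within their spread of each other. Tcf7 thus stood second only in TFEB cells given 4-OHT among the 4 groups. In vector cells Lef1 was followed by Cd2, at 276 ± 94.4 in 4-OHT and 332 ± 40.5 in vehicle, and by Lat, at 61.6 ± 13.9 in 4-OHT and 60.6 ± 18.0 in vehicle.

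The rest of the T and NK cell programme was read from 5 wider lists, also chosen with earlier results known, in which 125 further genes were found and 75 were tested. In TFEB cells 4-OHT raised 21 of the 75 and lowered 13, with a median log2 change of 0.28 against 0.04 over all tested genes and 27.5% of all genes called. In vector cells limma called 0 of the 75, against 0.0153% of all tested genes. At an unadjusted p under 0.05 limma had 7 of the 75, against 822 of all 13111 tested genes. In the same comparison edgeR and DESeq2 also called 0 of the 75. The effect differed between the lines for 27 of the 75, 16 higher and 11 lower in TFEB cells, against 15.8% of all genes.

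Most genes that define T cells or NK cells were near the floor in every group. Cd3d held 45 reads in all, with 8.18 ± 14.2 in TFEB cells given 4-OHT, 2.64 ± 3.69 in TFEB cells given vehicle, 3.67 ± 3.21 in vector cells given 4-OHT and 1.56 ± 2.09 in vector cells given vehicle. Cd3g averaged 1.94 ± 3.36 in TFEB cells given 4-OHT and 11.9 ± 6.31 in TFEB cells given vehicle, and its log2 difference of -2.63 was not called (adjusted p = 0.106, limma). The coreceptor genes Cd4 and Cd8a averaged 0.323 and 3.12 in TFEB cells given 4-OHT, against 4.57 and 0.857 in TFEB cells given vehicle. The NK receptor genes Ncr1 and Klrb1c averaged 5.59 and 5.16 in TFEB cells given 4-OHT, against 0 and 7.77 in TFEB cells given vehicle. The gene of the receptor complex with most reads was Cd247, the CD3 zeta chain, which is also used by NK cell receptors: it rose to 789 ± 78.4 in TFEB cells given 4-OHT, against 461 ± 125 in TFEB cells given vehicle (log2 0.80 ± 0.18 SE, adjusted p = 0.000953, limma), with 405 ± 67.8 in vector cells given 4-OHT and 396 ± 82.7 in vector cells given vehicle. Cd247 made up most of the summed level of the 11 genes of that list, which was 906 to 962 per library in TFEB cells given 4-OHT, 387 to 639 in TFEB cells given vehicle, 360 to 515 in vector cells given 4-OHT and 321 to 504 in vector cells given vehicle. Limma called 1 of its 4 tested genes, Cd247, in TFEB cells, against 27.5% of all genes. Cd5, a receptor of T cells and of some B cells, was not called for 4-OHT in TFEB cells (adjusted p = 0.0749, limma), with 82.9, 106 and 132 in TFEB cells given 4-OHT, against 14.6, 6.40 and 33.2 in TFEB cells given vehicle; its vector libraries had at most 9.49, and it was named after its values were seen.

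Of 17 tested genes of T cell receptor signalling, 5 rose and 4 fell with 4-OHT in TFEB cells, against 13.7% of all genes higher and 13.9% lower. Grap2, an adaptor of the LAT and SLP-76 complex, rose to 1408 ± 198 in TFEB cells given 4-OHT, against 146 ± 48.9 in TFEB cells given vehicle (log2 3.31 ± 0.25 SE, adjusted p = 5.92e-12, limma). Nfatc1, a calcineurin-dependent transcription factor, rose to 9703 ± 360 in TFEB cells given 4-OHT, against 2874 ± 185 in TFEB cells given vehicle. Plcg1, the phospholipase C recruited by LAT in T cells, fell to 38.2 ± 29.8 in TFEB cells given 4-OHT, against 223 ± 41.5 in TFEB cells given vehicle. Rasgrp1, a Ras activator, fell to 275 ± 38.4 in TFEB cells given 4-OHT, against 1272 ± 121 in TFEB cells given vehicle. The effect on each of these 4 differed between the lines (adjusted p = 1.70e-08, 1.08e-12, 0.000389 and 1.62e-11, limma). Zap70, the kinase that binds the zeta chain, differed between the lines before 4-OHT, at 469 ± 66.4 in TFEB cells given vehicle and 61.3 ± 18.5 in vector cells given vehicle (log2 2.95 ± 0.31 SE, adjusted p = 9.10e-08, limma); it was named after its values were seen.

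Of 18 tested T cell surface receptor genes, 6 rose and 2 fell, against 13.7% of all genes higher and 13.9% lower. Pdcd1, the inhibitory receptor PD-1, had 217 ± 26.2 in TFEB cells given 4-OHT, against 2.88 ± 3.60 in TFEB cells given vehicle (log2 6.29 ± 1.15 SE). Pdcd1 passed the filter on low values only through the TFEB 4-OHT libraries, where it was high, so its call is a description. Ccr7, a lymph node homing receptor, had 2097 ± 95.9 in TFEB cells given 4-OHT, against 145 ± 10.1 in TFEB cells given vehicle. Cd69, an early activation antigen of lymphocytes, had 1740 ± 81.0 in TFEB cells given 4-OHT, against 144 ± 52.1 in TFEB cells given vehicle. Tnfrsf9 (4-1BB) had 238 ± 27.8 in TFEB cells given 4-OHT, against 31.5 ± 9.98 in TFEB cells given vehicle, and its call was lost with no variance trend (adjusted p = 0.069, limma) and without the 3 libraries with most genes (adjusted p = 0.085, limma). PD-1, CCR7 and CD69 are also known on activated B cells.

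Of 17 tested T and NK cell transcription factor genes, 2 rose and 5 fell, against 13.7% of all genes higher and 13.9% lower. Id3, an inhibitor of E proteins, fell to 67.4 ± 21.2 in TFEB cells given 4-OHT, against 767 ± 74.1 in TFEB cells given vehicle (log2 -3.53 ± 0.18 SE, adjusted p = 2.97e-16, limma). Id2, its relative and a factor of NK cell development, fell to 114 ± 16.0 in TFEB cells given 4-OHT, against 318 ± 92.1 in TFEB cells given vehicle, while vector cells had 92.7 ± 69.7 in 4-OHT and 144 ± 29.4 in vehicle; its effect did not differ between the lines past the threshold (adjusted p = 0.618, limma). The Id2 call in TFEB cells was lost with no variance trend (adjusted p = 0.066, limma) and without the 3 libraries with most genes (adjusted p = 0.086, limma). Runx1 and Ets1, which act in B and T lineages alike, fell by 0.76 and 0.71 on the log2 scale (SE 0.08 each).

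Of 19 tested cytotoxic and NK cell genes, 7 rose and 2 fell, against 13.7% of all genes higher and 13.9% lower. Ccl4, a chemokine of activated NK and T cells and of macrophages, averaged 279 ± 15.5 in TFEB cells given 4-OHT and was at 0 in all 3 libraries of TFEB cells given vehicle. This was at least 67.2-fold higher against 4.15, the highest 3-read floor of those 3 libraries. Fcer1g, a signalling chain shared by Fc and NK cell receptors, averaged 52.1 ± 21.5 in TFEB cells given 4-OHT and was at 0 in TFEB cells given vehicle, at least 12.6-fold higher against the same floor. Ccl4 and Fcer1g passed the filter on low values only through the TFEB 4-OHT libraries, where they were high. Their calls, counted among the 7, are therefore a description. Tyrobp (DAP12), an adaptor of NK and myeloid receptors, averaged 52.5 ± 11.2 in TFEB cells given 4-OHT, against 6.36 ± 5.27 in TFEB cells given vehicle; limma called it (adjusted p = 0.00516) and edgeR did not (adjusted p = 0.071). Cd244, the receptor 2B4, fell to 82.5 ± 26.6 in TFEB cells given 4-OHT, against 930 ± 201 in TFEB cells given vehicle.

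**Figure D4:**
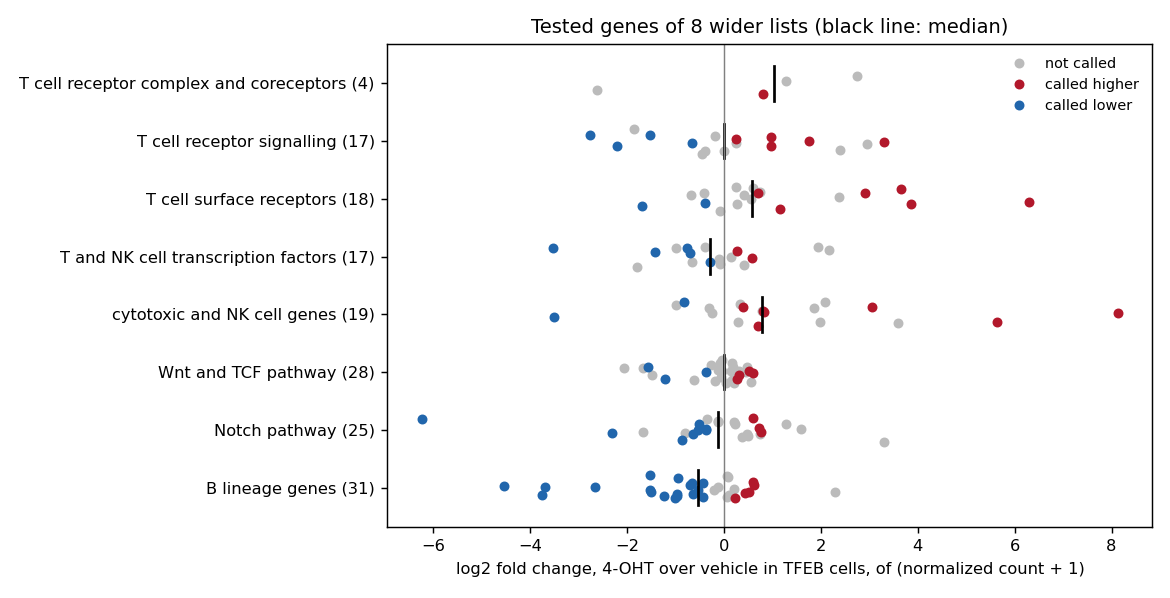
Log2 fold change of 4-OHT over vehicle in TFEB cells for each tested gene (points) of 8 wider lists, with the number of tested genes in brackets and a black line at the median. Calls by limma are red where higher and blue where lower. The lists of T and NK cell genes hold calls on both sides of 0. The B lineage list holds 18 lower and 5 higher, against 13.9% of all genes lower and 13.7% higher.

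Tcf7 and Lef1 act with the Wnt pathway, and Notch signalling is known to induce Tcf7 in early T cells, so both pathways were read alongside. Of 28 tested Wnt and TCF pathway genes, 4 rose and 3 fell, with a median log2 change of 0.00, against 13.7% of all genes higher and 13.9% lower. Lgr5, a receptor gene of the Wnt pathway that is also a known Wnt target, fell by 1.56 ± 0.15 (SE) on the log2 scale. On the same scale Bcl9, a beta-catenin cofactor, fell by 1.21 ± 0.10 (SE), while Tle3, a corepressor bound by TCF factors, rose by 0.59 ± 0.08 (SE). Of 25 tested Notch pathway genes, 3 rose and 8 fell, against the same shares of all genes. The Notch target gene Hes1 fell to 85 ± 32.6 in TFEB cells given 4-OHT, against 422 ± 144 in TFEB cells given vehicle (adjusted p = 1.07e-07, limma). Heyl, another member of the HES and HEY family, fell to 2.90 ± 4.22 in TFEB cells given 4-OHT, against 196 ± 36.1 in TFEB cells given vehicle (adjusted p = 4.86e-11, limma). Adam10, a protease that cleaves Notch receptors, rose by 0.76 ± 0.09 (SE) on the log2 scale.

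Markers of the B lineage also changed with 4-OHT in TFEB cells, most of them downward. Of 31 tested B lineage genes, 18 fell and 5 rose with 4-OHT in TFEB cells, against 13.9% of all genes lower and 13.7% higher. The summed level of all 34 found ran from 119991 to 123703 in TFEB cells given 4-OHT, against 149177 to 149929 in TFEB cells given vehicle. In vector cells the sum was 152206 to 162317 in 4-OHT, against 150144 to 158425 in vehicle. Pax5, the factor that holds B cells to their lineage and represses genes of other lineages, fell to 2120 ± 310 in TFEB cells given 4-OHT, against 5014 ± 666 in TFEB cells given vehicle (log2 -1.24 ± 0.10 SE, adjusted p = 1.80e-11, limma), with 4522 ± 147 in vector cells given 4-OHT and 4312 ± 404 in vector cells given vehicle. The recombinase gene Rag1 fell to 94.5 ± 26.9 in TFEB cells given 4-OHT, against 1265 ± 126 in TFEB cells given vehicle, and Vpreb3, a chaperone of the precursor B cell receptor, to 985 ± 55.0 in TFEB cells given 4-OHT, against 6261 ± 425 in TFEB cells given vehicle. The level of Cd79a given above was called higher with 4-OHT in TFEB cells (log2 0.24 ± 0.09 SE, adjusted p = 0.0389, limma), a call lost without TFEB 4-OHT library 1 or 3 or TFEB vehicle library 2 or 3. The summed markers of myeloid and dendritic cells (19 genes) ran from 97.0 to 305 in TFEB cells given 4-OHT and 169 to 329 in TFEB cells given vehicle. Among 6 tested genes of that list 1, Mrc1, fell, against 13.9% of all genes lower. The part of the B lineage change in the members' values was not tested.

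The genes whose patterns over the 12 libraries were most like a member's were taken from 9534 genes with a mean of at least 50, as the 3 with the highest Pearson r of log2 values. The 12 points share their 4 groups, so a high r mainly restates the group order. For Tcf7 these were Sik3 (r = 0.995), Slc38a1 (0.994) and Twsg1 (0.994), and for Cd28 they were Rgs1 (0.993), Lilrb4 (0.985) and Mylk4 (0.981). For Lat they were Mgat5 (0.967), Lilrb4 (0.965) and Prodh (0.963), so Lilrb4 stood near both Lat and Cd28. For Prf1 they were 1110008L16Rik (0.960), Copa (0.926) and Vti1a (0.921). For Cd2 they were Cpeb1 (0.947), Npc2 (0.945) and Lsp1 (0.936), and for Lef1 they were Pim2 (0.955), Invs (0.951) and Aldoa (0.945). Among the members, r was 0.96 for Cd28 with Lat, 0.89 for Tcf7 with Cd28 and -0.54 for Tcf7 with Lef1.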

How the data were processed

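Per the labels' protocols, total RNA was extracted and a mouse RNA-seq kit of the NuGEN Ovation line was used. The values the authors deposited are a signal that is never negative: normalized read counts, in which all genes of a library share 1 scaling factor. The submitters' processing notes name the build mm10 and the tools STAR 2.5.3, HTSeq 0.6.1 and DESeq2 1.6.3; what each did, the annotation and the use of strand are not stated there. Without strand, reads of Tcf7, Lef1, Cd3e and Gata3 cannot be told apart from those of antisense genes that overlap them. Each of the 4 also overlaps an annotated gene on its own strand, from which strand would not separate it.

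Dividing each library by its smallest nonzero value gave whole numbers for 100% of values, within 0.001, so whole reads were recovered. The 13111 genes that reached 10 in 3 or more libraries were fitted with limma 3.58.1 in R 4.3.3 on log2(value + 1), with 12 libraries, 4 group means, 8 residual degrees of freedom and a variance trend. The Benjamini-Hochberg adjustment ran over all tested genes, with calls at an adjusted p under 0.05. The scripts were tested on simulated data. edgeR 4.0.16 (quasi-likelihood test) and DESeq2 1.42.0 were run on the whole reads as alternatives, among 24 settings. The setting that fitted only the groups compared was not run for the difference of the 4-OHT effects. A value of 0 allows up to 3 reads, and this floor covers counting error only.

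The 10 members and 11 wider lists (279 genes, 273 found, 2 of them by an older symbol) were chosen with earlier results of these data known. From each list up to 4 called genes with the largest change in TFEB cells and a group mean of at least 50 are named; lineage markers, Tfeb and, by r, the 3 genes most like each member are also named. Gene positions and exon lengths are from GENCODE M21 (GRCm38), and promoters are from RefSeq (GRCm38.p6). 1 of the lineage markers is not reported here.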

Additional observations from a re-analysis of the deposited data

Results flagged for a closer look

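The 4-OHT effect differed between the lines (limma interaction, adjusted p under 0.05 over all tested genes) for 34 of the members and genes named from the lists. Values are log2 differences, the effect in TFEB cells minus the effect in vector cells. No explanation was weighed for any of them, and the members' values and calls are a description.

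Among the members the differences were 7.03 for Tcf7, 5.29 for Cd28, 3.00 for Prf1, 1.24 for Lat and 1.22 for Cd2. Among the T and NK cell genes with a higher effect in TFEB cells, they were 7.13 for Ccl4, 6.05 for Pdcd1, 5.80 for Fcer1g, 4.36 for Tnfrsf9, 4.08 for Cd69, 4.04 for Ccr7, 3.37 for Grap2, 2.01 for Nfatc1 and 0.76 for Cd247. Ccl4, Pdcd1, Fcer1g and the member Cd28 passed the filter on low values only through the TFEB 4-OHT libraries, so their calls are a description. The Ccl4 difference was not called by edgeR (adjusted p = 0.145) or DESeq2 (adjusted p = 0.207). The Cd247 difference lost its call in 11 alternatives (0.57 to 0.85, limma, adjusted p up to 0.188), and those of Pdcd1, Fcer1g and Tnfrsf9 in 1 each. Among those with a lower effect in TFEB cells, they were -0.67 for Ets1, -0.75 for Runx1, -2.28 for Rasgrp1, -2.37 for Plcg1, -2.95 for Cd244 and -3.56 for Id3.

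Of the Wnt and Notch pathway genes, Adam10 (0.60) and Tle3 (0.57) had a higher effect in TFEB cells. Maml2 (-0.80), Bcl9 (-0.91), Lgr5 (-1.54), Hes1 (-2.11) and Heyl (-5.12) had a lower one. The Maml2 difference lost its call in 9 alternatives (-0.80 to -0.60, limma, adjusted p up to 0.175). Of the B lineage genes, the differences were -1.32 for Pax5, -2.68 for Vpreb3, -3.11 for Rag1, -3.16 for Rag2 and -4.16 for Blk, a kinase gene of the B lineage, whose call was lost in 1 alternative. Mrc1, the mannose receptor gene of macrophages, had -2.27, and Tfeb had -1.19.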

How the results depend on the processing

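Over 24 alternatives, 222 of 238 counts of called genes stayed within 1.5 times the reported count and 16 did not; no named gene's called effect changed direction. In TFEB cells the count of members called with 4-OHT was 6 throughout, and for the other T and NK cell genes it was 32 to 36 with 1 library left out. Both sets were chosen with earlier results known, so these counts are a description. In vector cells the count of members was 1 (Lef1) with DESeq2, and it ran from 0 to 1 with 1 library left out, as did the count of other T and NK cell genes (Nfatc1, without vector 4-OHT library 2). For the difference between the lines, 5 members became 3 with no filter on low values (Cd28 and Prf1 lost), 2 with no variance trend (Cd2, Cd28 and Lat lost) and 3 to 5 with 1 library left out, the lowest without TFEB 4-OHT library 1 or 3. Between the lines in vehicle, edgeR called 2 members, adding Cd28. There the 10 other T and NK cell genes became 16 with DESeq2, 6 with only the groups compared, 4 with no variance trend, 6 without the 3 libraries with most genes and 5 to 13 with 1 library left out. The cause was not tested. Over all genes, vector cells gave 2 calls with limma, 0 with edgeR and 48 with DESeq2, and the lines in vehicle gave 705, 646 and 1224.

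The replicate numbers shared by the groups did not pair the libraries: over 7794 genes, 1 of 18 correlations of same-numbered deviations was over 0.1, and they ran from -0.12 to 0.17. With the replicate number as a block, the counts of members called in the 5 comparisons stayed at 6, 0, 5, 1 and 5.

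Depth limits Cd3e, Gata3, Bcl11b and Gzmb, with 10 to 117 reads each over all libraries.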
